A study of Mus musculus with 20 samples.

Results

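A set of 40 genes that encode contractile and calcium-handling proteins of muscle was followed in the uterus of mice shortly before embryo implantation. They were chosen by gene symbol with earlier results of these data known, and all 40 were found among the 45777 genes of the deposited table. Their counts and medians beside those of all genes are therefore descriptions. Smooth- and striated-muscle genes were kept apart throughout. The 16 smooth-muscle genes were Acta2, Actg2, Myh11, Mylk, Myl9, Myl6, Cnn1, Tagln, Des, Smtn, Lmod1, Synpo2, Tpm1, Tpm2, Cald1 and Myocd. The 24 striated-muscle genes were Acta1, Actc1, Myh1, Myh2, Myh3, Myh4, Myh7, Myl1, Myl2, Myl3, Myl4, Tnnt1, Tnnt2, Tnnt3, Tnnc1, Tnnc2, Tnni1, Tnni2, Tnni3, Ckm, Pln, Sln, Casq1 and Casq2.

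RNA-seq was performed on 1 uterine horn from each of 20 wild-type B6D2F1 females aged 8 to 12 weeks that had been mated, and all uteri were taken at 18:00 on day 3.5 post coitum. The 5 control mice received no treatment. The 5 IF mice received RU486 (mifepristone, an antagonist of the progesterone and glucocorticoid receptors) under the skin on the morning of day 3.5, which serves as a model of implantation failure. The 5 PBMC mice received RU486 and, on day 1.5, an injection into the uterus of peripheral blood mononuclear cells from non-pregnant mice that had been cultured without hCG (human chorionic gonadotropin), and the 5 PBMC-hCG mice received the same with cells cultured with hCG. IF mice received no injection into the uterus, so injected cells and the injection itself cannot be told apart when a PBMC group is compared with IF. The horn was extracted whole, so the values average over myometrium, stroma, epithelium, vessels and blood cells.

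Uterine smooth muscle forms the circular and longitudinal layers of the myometrium, and smooth-muscle cells also lie in the walls of the arteries. It contracts when calcium activates myosin light chain kinase, which phosphorylates the regulatory light chain and lets smooth-muscle myosin pull on actin filaments. Striated muscle uses other actins and myosins, and its filaments are switched on by calcium binding to the troponin complex. Progesterone is known for keeping the myometrium quiet in early pregnancy.

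Values are TPM, a transcript abundance that is scaled for transcript length and to a fixed total per library, so levels may be compared between genes. Depth is unknown from TPM, and no counting error could be given. Differences were tested with limma on log2(TPM + 0.1) over the 18706 genes above 0 TPM in all 20 libraries, with all 4 groups in 1 fit and Benjamini-Hochberg adjustment over all of these genes, and "rose" and "fell" below mean an adjusted p under 0.05. The p-values measure the spread between the mice, and comparisons that use the control or the IF mice share those mice. All values for single mice are in the order of replicates 1 to 5. The libraries held between 22702 and 24097 genes above 0 TPM. Control replicate 2 stood apart from the other control mice: it lay below all 4 of them in 39.8% and above all 4 in 28.7% of the tested genes, below them in 11 of the 16 smooth-muscle and 11 of the 14 tested striated-muscle genes, and its 10 most abundant genes took 10.2% of the TPM against 7.02% to 8.82% in the other 19 libraries. All 6 adipose markers examined were at their highest in it. Their summed level was 568 TPM there and 1.53 to 118 TPM in the other mice, and Adipoq and Cfd, which adipocytes secrete, were at 42.1 and 284 TPM. Why this library stood apart was not tested. The fits were repeated without it, and calls of the 40 genes that change are given both ways. Because that library was low in most tested members, leaving it out raises their control means. The direction of calls added against control follows from that choice. Counts of cell markers and of the further gene lists are with all mice only.

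All 16 smooth-muscle genes were above 0 TPM in every library. The myometrial markers among them, Myh11, Des, Cnn1, Actg2 and Acta2, were all at or above 398 TPM in each mouse, so that the tissue label and the data did not conflict. Their summed level was 14542, 12313, 18391, 16882 and 20959 TPM in control, 14149, 13885, 12757, 15822 and 15502 TPM in IF, 15717, 15266, 14666, 13096 and 13879.8 TPM in PBMC mice, and 13699.8, 12380.3, 11530.5, 11896 and 12634 TPM in PBMC-hCG mice. The 4 groups overlapped in this sum, and the control mice were the most spread. The 24 striated-muscle genes together reached only 421, 170.1, 453, 446 and 483 TPM in control, 171, 153, 130.5, 210.2 and 184 TPM in IF, 191, 196, 207, 199.7 and 174 TPM in PBMC mice, and 177, 146, 157, 159 and 163 TPM in PBMC-hCG mice. Control mice other than replicate 2 lay above every RU486-treated mouse in the striated sum, which consisted mostly of Acta1. In bulk tissue, fewer cells of a type and less RNA per cell cannot be told apart.

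**Figure D1:**
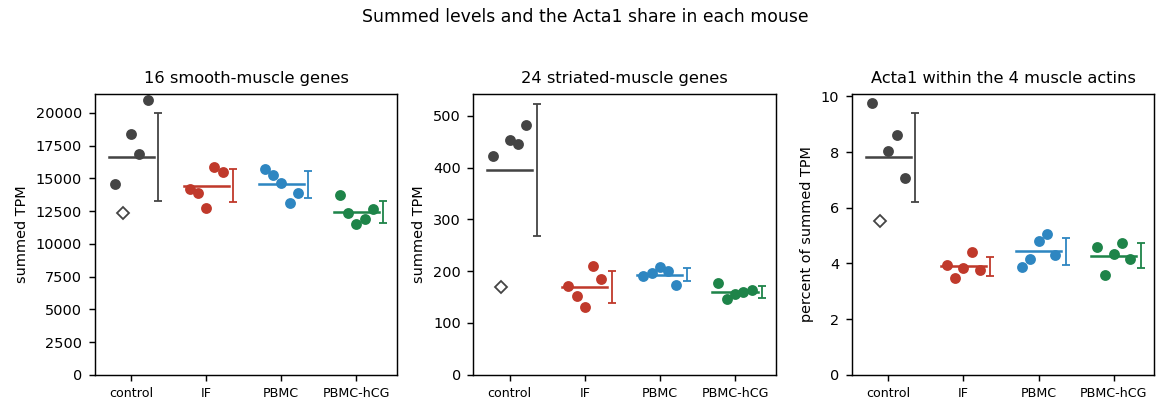
Summed TPM of the 16 smooth-muscle genes (left) and the 24 striated-muscle genes (middle), and the percentage of the summed TPM of Acta1, Acta2, Actc1 and Actg2 that came from Acta1 (right), with 1 point per mouse, horizontal lines at the group means and bars of 1 SD (n = 5). Open diamonds mark control replicate 2, and the Acta1 share is 5.52% to 9.77% in control mice and 3.48% to 5.05% in the other groups.

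Of the 24 striated-muscle genes, 14 were above 0 TPM in all 20 libraries and could be tested. The other 10 were listed at 0 in some libraries. Myh1, Myh2 and Myh4, the heavy chains of adult fast skeletal fibers, and Sln, which encodes the calcium pump inhibitor sarcolipin, were listed at 0 in every library. Myh3, Myh7 and Myl1 reached at most 0.0644, 0.039 and 0.626 TPM in any mouse. Of 41 further striated-muscle genes, 5 were listed at 0 in every library, among them Myod1, Myog and Pax7, and 3 reached 10 TPM in some library (Myom1, Eno3 and Pygm). The defining heavy chains and regulators of skeletal muscle were thus at or near 0 while Acta1, named for skeletal muscle, was at 73.7 to 369.9 TPM.

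The 4 muscle actins are encoded by separate genes, and 3 of them were compared base by base here because their reads could be mistaken for each other's. Acta1 (skeletal, chr8:123891758-123894775), Acta2 (vascular smooth muscle, chr19:34240336-34255585) and Actc1 (cardiac, chr2:114047282-114052875) have coding sequences of 1134 bases in the GENCODE M21 transcripts used, and Actg2 (enteric and uterine smooth muscle, chr6:83512909-83536251) has 1131. Acta1 shared 85.4% of its coding bases with Acta2 and 86.2% with Actc1, and Acta2 shared 82.5% with Actc1. The first 60 coding bases of the 3 genes of equal length follow 5′ to 3′, with capitals at the positions where the 3 are not all alike.
Acta1: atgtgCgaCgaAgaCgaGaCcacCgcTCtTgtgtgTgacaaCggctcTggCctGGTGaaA
Acta2: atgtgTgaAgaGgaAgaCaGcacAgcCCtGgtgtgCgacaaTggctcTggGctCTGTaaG
Actc1: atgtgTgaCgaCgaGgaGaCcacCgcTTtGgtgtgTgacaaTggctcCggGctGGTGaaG
Over whole transcripts, 0.219% of the 75-base windows of Acta1 were also found in a transcript of another of the 6 actins compared (the 4 above, Actb and Actg1), and no window of 100 bases was. For 50-base windows the shares were 2.0% in Acta1, 0.352% in Acta2 and 0.0% in Actc1 and Actg2. The read length and the treatment of shared reads are not given in the sources used here.

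The comparison of IF with control addresses RU486 together with its injection under the skin. No vehicle injection is described for the control mice. Drug and injection therefore cannot be told apart here or in the other comparisons with control. With all mice, 2 of the 16 smooth-muscle genes, Acta2 and Mylk, fell and none rose, and without control replicate 2, as described further on, 8 fell. With all mice, over all tested genes 21.9% passed in either direction and 8.53% were lower. The median log2 fold change of the 16 genes was -0.16 (range -0.56 to 0.17) beside 0.02 over all genes. No smooth-muscle gene had groups that did not overlap, which held for 12.8% of all genes.

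Acta2, the main actin of vascular smooth muscle that the myometrium also makes, was at 2055, 1427, 2519.6, 2281 and 2612 TPM in control, 1598, 1611, 1245, 1883 and 1671 TPM in IF, 1943, 1802, 1767, 1542 and 1474 TPM in PBMC mice and 1572, 1411, 1328, 1217 and 1468 TPM in PBMC-hCG mice. Every control mouse but replicate 2 lay above every other mouse. Its log2 fold change between IF and control was -0.42 (standard error 0.14, adjusted p = 0.0367 in limma's test), a level 0.74 times that of control. It no longer passed without control replicate 1, 3, 4 or 5 or without IF replicate 1, 2, 3 or 5, with log2 fold changes of -0.57 to -0.34 over all leave-outs and adjusted p-values up to 0.0986, nor when only these 2 groups were fitted (adjusted p = 0.126).

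Mylk (chr16:34745199-35002436) encodes myosin light chain kinase, the enzyme that switches smooth-muscle contraction on. It was at 321, 365, 501, 472 and 359.8 TPM in control, 293, 356, 315, 308 and 255 TPM in IF, 368, 324, 311, 277 and 317 TPM in PBMC and 389, 314, 257, 305 and 297 TPM in PBMC-hCG mice. Control replicate 1 lay within the range of the IF mice and the other 4 control mice above it. The log2 fold change was -0.39 (standard error 0.12, limma's adjusted p = 0.0301), and the call was lost without control replicate 3 or 4 or IF replicate 1 or 5 (log2 fold changes -0.47 to -0.31 over all leave-outs, adjusted p up to 0.0925) and when only these 2 groups were fitted. Long non-coding RNA genes overlap Mylk, Actg2, Des, Smtn, Cald1 and Myocd among the smooth-muscle genes and Casq1, Ckm, Tnnt3, Myl4, Myh1 and Myh7 among the striated-muscle genes, and the protein-coding gene Ccdc63 overlaps Myl2. Whether strand was used in the authors' quantification is not given in the sources used here.

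Leaving out control replicate 2 raised the number of smooth-muscle genes lower in IF than in control from 2 to 8, when 26.8% of all genes passed and 12.4% were lower. The 6 that were added were Actg2, Myl9, Cnn1, Synpo2, Tpm1 and Tpm2, and their log2 fold changes without that mouse were -0.85, -0.33, -0.44, -0.21, -0.42 and -0.39. All 6 were among the 11 of 16 genes in which that mouse lay below the other control mice, so leaving it out raised their control means. Without control replicate 5, the highest of its group in 14 of the 16 genes, 1 smooth-muscle gene fell. With all mice, 2509 of the 18706 tested genes were higher and 1595 lower in IF than in control mice. Endothelial markers moved between the same groups: all 6 were higher in IF mice, with summed levels of 366 to 492 TPM in control and 545 to 590.3 TPM in IF mice. Of the 7 epithelial markers 4 were higher (sums of 556 to 951 TPM in control and 807 to 1052 TPM in IF mice), and of the 6 mural cell markers, which pericytes and vascular smooth muscle share, 4 were higher and 1 lower (366 to 533 and 455 to 519.8 TPM). No marker of these 3 lists was at 0 in every library, and their part in the smooth-muscle values was not tested.

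No change was called among these genes when PBMCs without hCG had been given. Compared with IF, none of the 16 smooth-muscle and none of the 14 tested striated-muscle genes passed limma's test with adjustment, nor did any of the 18706 genes (0.0% called), and 1271 genes (6.79%) had an unadjusted p under 0.05. Lmod1, which encodes the actin nucleator leiomodin, and Casq1 were the 2 members among those, at log2 fold changes of 0.23 (95% interval 0.02 to 0.45) and 0.74 (interval 0.24 to 1.25). The 95% intervals of Acta2 and Actg2 were -0.20 to 0.39 and -0.55 to 0.48.

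PBMCs cultured with hCG were compared with IF to ask what the full treatment does in the model. No member passed adjustment in limma's test, whereas 13.6% of all genes did. Below an unadjusted p of 0.05 were 4 smooth-muscle genes that were lower (Actg2, Cnn1, Des and Cald1) and 2 striated-muscle genes that were higher (Myl3 and Tnnt1), and 35.0% of all genes reached this level. The median log2 fold change was -0.17 over the smooth-muscle genes, 0.02 over the striated-muscle genes and 0.05 over all genes. These 4 smooth-muscle genes are described in the next paragraph though the rule for naming genes in full did not include them, and they were chosen after their values were seen.

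Des, which encodes the intermediate filament protein desmin, was at 592, 542, 748, 698 and 1135 TPM in control, 676, 599.5, 662, 685 and 1099 TPM in IF, 684, 686, 767, 559 and 853 TPM in PBMC and 641, 495, 415, 482 and 478 TPM in PBMC-hCG mice. PBMC-hCG replicate 1 was above the lowest IF mouse, and the other 4 PBMC-hCG mice lay below every mouse of the other groups. The log2 fold change against IF was -0.55 (standard error 0.18, adjusted p = 0.0538 in limma's test). Actg2, the gamma actin of visceral smooth muscle, was at 1022, 551, 1429, 1415 and 2234 TPM in control, 764, 758, 615, 1005 and 1009.6 TPM in IF, 807, 854, 835, 686 and 807 TPM in PBMC and 681, 559, 501, 550.1 and 555 TPM in PBMC-hCG mice. All 5 PBMC-hCG mice lay below all 5 PBMC mice, and PBMC-hCG replicate 1 above only the lowest IF mouse. Against IF its log2 fold change was -0.53 (standard error 0.24, limma's adjusted p = 0.134). Cnn1, which encodes the actin-binding protein calponin, was at 519, 533, 432, 658 and 630.0 TPM in IF and 505, 407, 398, 412 and 433 TPM in PBMC-hCG mice, and Cald1, which encodes caldesmon, was at 319, 326, 235, 344 and 418 and 304, 256, 233, 208 and 249 TPM. Both overlapped between the groups, at log2 fold changes of -0.35 and -0.38 (limma's adjusted p = 0.109 and 0.107).

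Without control replicate 2, which enters this comparison only through the shared estimate of spread, Actg2, Cnn1, Des, Cald1 and Myl3 passed (adjusted p = 0.0342, 0.0493, 0.0376, 0.0423 and 0.0396 in limma's test), when 21.8% of all genes did. Des also passed without control replicate 5, PBMC replicate 5, PBMC-hCG replicate 1 or IF replicate 3, and Cald1 and Cnn1 without IF replicate 3 (adjusted p = 0.0345, 0.0453, 0.0274, 0.0404, 0.0299 and 0.0432). With all mice, 1423 of the 18706 tested genes were higher and 1121 lower in PBMC-hCG than in IF mice. Of the 5 red cell markers, 2 were lower in PBMC-hCG than in IF mice, with summed levels of 342 to 878 TPM against 640.0 to 1802 TPM, and 4 of the 5 mesothelial markers were higher (143 to 194 TPM against 121 to 156 TPM). Their part in the muscle gene values was not tested.

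The direct comparison of PBMC-hCG with PBMC asks what hCG adds. No member passed limma's test with adjustment, and 2 genes (0.0107%) did over the whole table, while 16.2% of genes were below an unadjusted p of 0.05. Des and Cald1 were below it, at log2 fold changes of -0.50 (interval -0.89 to -0.11) and -0.36 (interval -0.70 to -0.02). Actg2, with groups that did not overlap as in 3.46% of all genes, had a log2 fold change of -0.49 (interval -1.0 to 0.02, limma's adjusted p = 0.319).

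**Figure D2:**
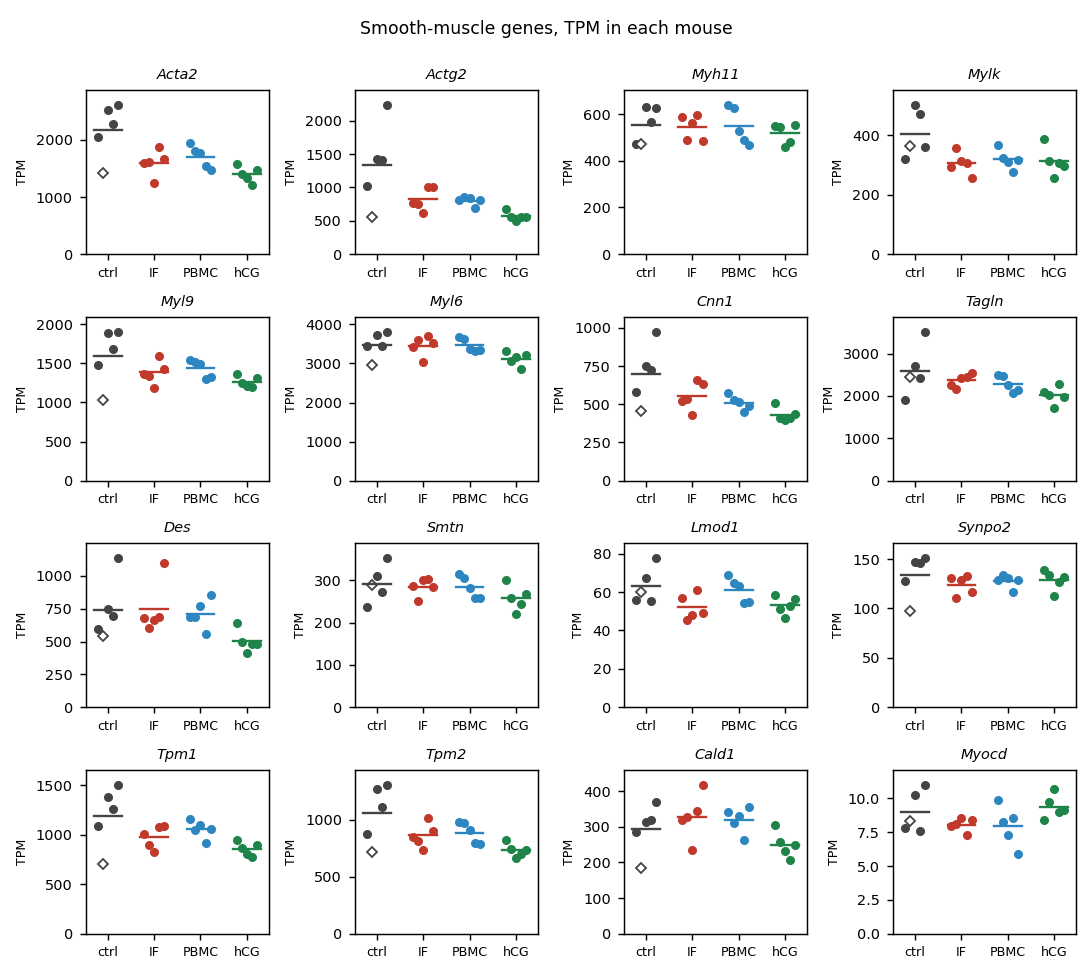
TPM of the 16 smooth-muscle genes in each mouse (vertical axes, linear from 0), with a panel per gene, a column per group (ctrl, control; hCG, PBMC-hCG) and horizontal lines at the group means (n = 5). Open diamonds mark control replicate 2, which lies lowest of the control mice in 11 of the 16 panels, and Actg2 in PBMC-hCG mice lies between 501 and 681 TPM, below all PBMC mice.

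Set against control, smooth-muscle genes were lower in the PBMC-hCG group, which had the lowest mean of the summed level (12428 TPM against 16617 TPM in control). Of the 16 genes 8 fell and none rose, beside 31.8% of all genes called and 11.6% lower. The median log2 fold change was -0.32 against 0.08 over all genes. Acta2 fell by 0.61 and Actg2 fell by 1.09 on the log2 scale (standard errors 0.14 and 0.24, limma's adjusted p = 0.00303 and 0.0026), so that Actg2 stood at 0.47 times its control level. Cnn1 fell by 0.66 (standard error 0.15), from 698 ± 194 TPM (SD, n = 5) to 431 ± 43.5 TPM (SD, n = 5), and Tpm2, a tropomyosin that lies along the actin filament, fell by 0.49 (standard error 0.14), from 1057 ± 256 to 736 ± 60.7 TPM (SD, n = 5 each). The adjusted p-values of Cnn1 and Tpm2 in limma's test were 0.00324 and 0.0103. These 4 genes kept an adjusted p under 0.05 without any 1 mouse and in every other fit, whereas Actg2 alone of the 16 met a criterion of a fold change of at least 2 with an unadjusted p under 0.05, as 4.74% of all genes did.

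The other 4 of these smooth-muscle genes were Mylk, Tagln, Des and Tpm1, with log2 fold changes of -0.36, -0.34, -0.53 and -0.42 (adjusted p = 0.0334, 0.0344, 0.0351 and 0.0364 in limma's test). Tagln encodes transgelin, an actin-binding protein, and was at 1907, 2452, 2704, 2415 and 3517 TPM in control and 2089.9, 2024, 1705, 2292 and 1974 TPM in PBMC-hCG mice. Control replicate 1 lay within the PBMC-hCG range and the other 4 control mice above it. These calls were lost without 1 or another mouse: Mylk without control replicate 3 or 4 or PBMC-hCG replicate 2, 3, 4 or 5, Tagln without control replicate 3 or 5 or PBMC-hCG replicate 2, 3 or 5, Des without control replicate 3, 4 or 5 or PBMC-hCG replicate 2, 3, 4 or 5, and Tpm1 without control replicate 1, 3, 4 or 5 or PBMC-hCG replicate 2, 3, 4 or 5, with adjusted p-values up to 0.0996, 0.103, 0.111 and 0.111. All 4 were also lost when only these 2 groups were fitted. Without control replicate 2, 11 smooth-muscle genes fell (Myl9, Myl6 and Cald1 were added, at -0.45, -0.21 and -0.37), when 40.2% of all genes passed and 17.1% were lower. With all mice, 20.2% of all genes were higher and 11.6% lower in PBMC-hCG than in control mice. All 6 endothelial, 5 of 6 mural and 5 of 7 epithelial markers were higher in PBMC-hCG than in control mice, with summed levels of 611 to 685, 459 to 591 and 939 to 1248 TPM, and their part in the smooth-muscle values was not tested.

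In PBMC against control no smooth-muscle gene passed, and 4 were below an unadjusted p of 0.05: Acta2 at a log2 fold change of -0.33, Actg2 at -0.60, Mylk at -0.32 and Cnn1 at -0.41 (limma's adjusted p = 0.112, 0.0955, 0.0778 and 0.0672), in a comparison where 19.5% of all genes were called and 31.6% were below that unadjusted p. Without control replicate 2, Acta2, Actg2, Myl9, Cnn1, Tpm1 and Tpm2 fell, when 24.7% of all genes were called in either direction. The share that was lower is not given for this fit. The protein-coding genes Pcsk7 and Car9 overlap Tagln and Tpm2, and reads could be shared between them.

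The other 8 smooth-muscle genes passed in none of the 6 comparisons with all mice, though without control replicate 2 Synpo2, Myl9, Myl6 and Cald1 each fell in at least 1 comparison with control, as given above. Myh11, the smooth-muscle myosin heavy chain, stayed between 459.6 and 639 TPM over all 20 mice, and its log2 fold change between IF and control was -0.02 (interval -0.24 to 0.20). Myl6, the essential light chain, was the most abundant member at 2846 to 3815 TPM, with an interval of -0.17 to 0.15. Smtn (smoothelin) at 219.7 to 353 TPM, Synpo2 (synaptopodin 2) at 97.8 to 151 TPM, Myl9 (the regulatory light chain) at 1026 to 1906 TPM, Lmod1 at 45.6 to 77.7 TPM and Cald1 at 184 to 418 TPM were the other structural genes among the 8. Myocd, which encodes myocardin, the coactivator that turns smooth-muscle genes on, was the least abundant smooth-muscle gene at 5.86 to 11 TPM, and its interval between IF and control was -0.41 to 0.12.

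In each comparison with control, the largest fold changes of the 30 tested members were those of striated-muscle genes. Between IF and control 4 of the 14 tested genes fell, Acta1, Tnni2, Casq1 and Casq2, and none rose, where 8.53% of all genes were lower. The median log2 fold change of the 14 was -0.29 beside 0.02 over all genes, and the range was -1.53 to 0.59. Against control, Acta1, Tnni2 and Casq2 fell in the PBMC group as well, where 6.7% of all genes were lower, and 5 genes (Acta1, Actc1, Tnni2, Ckm and Casq2) fell and 1 (Myl3) rose in the PBMC-hCG group, where 11.6% of all genes were lower and 20.2% higher. These comparisons share the control mice. Endothelial, mural and epithelial markers differed from control in each of them, with 6 of 6, 5 of 6 and 4 of 7 higher in PBMC mice (summed levels of 549.9 to 631, 466 to 578 and 881 to 1149 TPM) and the counts given above for the other groups, and their part in the striated-muscle values was not tested. Over all 18706 tested genes, 2400 were higher in PBMC than in control mice. Acta1, Tnni2 and Casq2 kept an adjusted p under 0.05 in all 3 comparisons without any 1 of the 20 mice and in every other fit, though Tnni2 did not reach a fold change of 2.

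**Figure D3:**
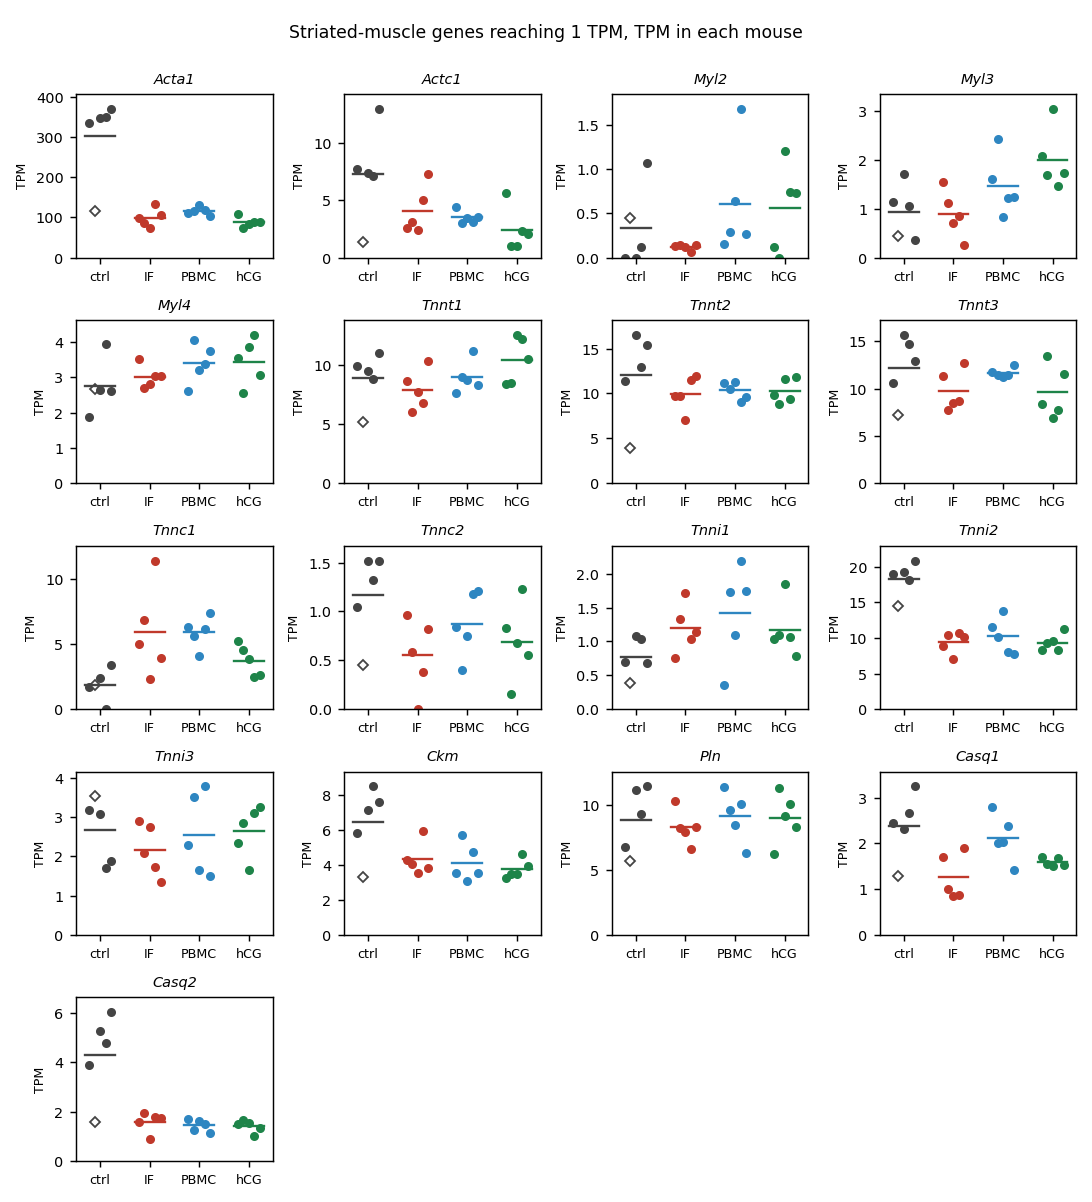
TPM of the 17 striated-muscle genes that reached 1 TPM in some library, in each mouse (vertical axes, linear from 0), with a panel per gene, a column per group (ctrl, control; hCG, PBMC-hCG) and horizontal lines at the group means (n = 5). In the Acta1 and Casq2 panels every control mouse but the open diamond of control replicate 2 lies above the treated mice, and in the Tnni2 panel that diamond, at 14.5 TPM, does too.

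Acta1, the actin of skeletal muscle thin filaments, was at 334, 116, 347, 350.1 and 369.9 TPM in control, 97.4, 85.6, 74.3, 134 and 105 TPM in IF, 111, 115, 131, 119 and 102 TPM in PBMC and 109, 73.7, 83.3, 87.7 and 87.7 TPM in PBMC-hCG mice. Control replicate 2 lay among the IF and PBMC mice and above the PBMC-hCG mice, and the other 4 control mice lay above all treated mice. The log2 fold changes against control were -1.53 in IF, -1.28 in PBMC and -1.68 in PBMC-hCG mice (standard error 0.24 each, adjusted p = 0.000164, 0.000914 and 5.7e-05 in limma's test). Without control replicate 2 they were -1.85, -1.60 and -2.0. Acta1 made up 7.81% ± 1.61 (SD, n = 5) of the summed TPM of the 4 muscle actins in control, 3.89% ± 0.339 in IF, 4.43% ± 0.48 in PBMC and 4.28% ± 0.439 in PBMC-hCG mice, and control replicate 2, at 5.52%, was above all treated mice in this share. Between the PBMC groups and IF the intervals of its log2 fold change were -0.26 to 0.75 (PBMC) and -0.66 to 0.35 (PBMC-hCG).

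Actc1, the actin of heart muscle, was at 7.72, 1.39, 7.36, 7.15 and 13 TPM in control, 2.61, 3.12, 2.42, 4.99 and 7.31 TPM in IF, 4.45, 3.01, 3.42, 3.07 and 3.57 TPM in PBMC and 5.64, 1.05, 1.01, 2.3 and 2.09 TPM in PBMC-hCG mice. Control replicate 2 lay among the treated mice, and of these only IF replicate 5 reached the other 4 control mice. It fell by 1.55 on the log2 scale between PBMC-hCG and control (standard error 0.50, limma's adjusted p = 0.023), a call lost without control replicate 1 or 5 or PBMC-hCG replicate 2 or 3 (log2 fold changes -2.06 to -1.27 over all leave-outs, adjusted p up to 0.0712) and when only these 2 groups were fitted. Without control replicate 2 it fell in the IF group (-1.17, adjusted p = 0.0378) and the PBMC group (-1.27, adjusted p = 0.0267).

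Calsequestrins bind calcium inside the sarcoplasmic reticulum. Casq2, the cardiac form (chr3:102086415-102146514), was at 3.88, 1.59, 5.29, 4.8 and 6.04 TPM in control, 1.58, 1.94, 0.881, 1.8 and 1.76 TPM in IF, 1.72, 1.27, 1.61, 1.48 and 1.13 TPM in PBMC and 1.48, 1.67, 1.53, 1.01 and 1.33 TPM in PBMC-hCG mice. The control mice other than replicate 2 lay at or above 3.88 TPM, and no treated mouse exceeded 1.94 TPM. Its log2 fold changes against control were -1.31, -1.41 and -1.45 in IF, PBMC and PBMC-hCG mice (standard error 0.28 each, adjusted p = 0.00247, 0.00149 and 0.000817 in limma's test). Casq1, the skeletal form (chr1:172209894-172219895), was at 2.44, 1.29, 2.32, 2.66 and 3.25 TPM in control, 1.7, 0.997, 0.855, 0.881 and 1.9 TPM in IF, 2.79, 2.01, 2.03, 2.37 and 1.41 TPM in PBMC and 1.7, 1.55, 1.51, 1.69 and 1.53 TPM in PBMC-hCG mice. Control replicate 2 lay among the IF mice, and PBMC mice overlapped both groups. Casq1 fell by 0.88 on the log2 scale in IF mice (standard error 0.24, limma's adjusted p = 0.0131), though not when only these 2 groups were fitted (adjusted p = 0.0699), and it lay at 0.74 in PBMC against IF (adjusted p = 0.628). At these levels the added 0.1 TPM draws fold changes toward 0.

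Pln encodes phospholamban, which holds back the calcium pump of the reticulum. It was at 6.76, 5.68, 11.1, 9.31 and 11.4 TPM in control, 10.3, 8.22, 7.87, 6.63 and 8.32 TPM in IF, 11.3, 9.56, 8.47, 10.1 and 6.28 TPM in PBMC and 6.22, 11.3, 9.13, 10 and 8.25 TPM in PBMC-hCG mice. The 4 groups overlapped throughout and no comparison passed. Pln lies within the bounds of Cep85l, with which reads could be shared.

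Among the troponins, which carry the calcium switch of striated filaments, Tnni2 was the 1 gene that fell. This fast skeletal inhibitory subunit (chr7:142441816-142444410) was at 19, 14.5, 19.3, 18.1 and 20.9 TPM in control, 8.88, 10.4, 6.99, 10.7 and 10.1 TPM in IF, 11.6, 10.1, 13.9, 8.1 and 7.81 TPM in PBMC and 8.25, 9.28, 9.53, 8.25 and 11.3 TPM in PBMC-hCG mice. Every control mouse, replicate 2 included, lay above every mouse of the 3 treated groups, an order found in 4.27%, 4.08% and 5.07% of all genes for IF, PBMC and PBMC-hCG. The log2 fold changes against control were -0.96, -0.85 and -0.97 (standard error 0.15 each, adjusted p = 0.000196, 0.000703 and 0.000149 in limma's test), and against IF they were 0.11 in PBMC (interval -0.21 to 0.44) and -0.01 in PBMC-hCG mice (interval -0.33 to 0.32).

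The other inhibitory subunits were low. Tnni1, the slow skeletal form, was at 0.698, 0.382, 1.09, 1.03 and 0.68 TPM in control, 0.758, 1.33, 1.71, 1.04 and 1.14 TPM in IF, 0.351, 1.73, 1.1, 2.19 and 1.74 TPM in PBMC and 1.04, 1.09, 1.85, 1.07 and 0.787 TPM in PBMC-hCG mice. Tnni3, the cardiac form, was at 3.18, 3.54, 3.07, 1.69 and 1.89 TPM in control, 2.89, 2.09, 2.75, 1.74 and 1.36 TPM in IF, 2.28, 3.51, 1.65, 3.78 and 1.49 TPM in PBMC and 2.35, 2.86, 1.66, 3.1 and 3.26 TPM in PBMC-hCG mice. Neither passed in any comparison, and all groups overlapped. Tnni2 made up 84.0% ± 4.07 (SD, n = 5) of the summed TPM of the 3 troponin I genes in control, 73.3% ± 7.83 in IF, 71.8% ± 10.8 in PBMC and 70.8% ± 2.87 in PBMC-hCG mice.

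The troponin T genes encode the subunits that tie the complex to tropomyosin, and none passed. Tnnt1, the slow skeletal form, was at 9.94, 5.23, 9.56, 8.88 and 11.1 TPM in control, 8.71, 6.02, 7.73, 6.85 and 10.4 TPM in IF, 7.64, 9.03, 8.74, 11.2 and 8.32 TPM in PBMC and 8.41, 8.51, 12.6, 12.2 and 10.5 TPM in PBMC-hCG mice. Its groups overlapped, with a log2 fold change of 0.40 between PBMC-hCG and IF (limma's adjusted p = 0.139). Tnnt2, the cardiac form, was at 11.4, 3.9, 16.5, 13 and 15.3 TPM in control, 9.68, 9.75, 7.01, 11.5 and 12 TPM in IF, 11.2, 10.5, 11.3, 9.05 and 9.66 TPM in PBMC and 9.79, 8.78, 11.6, 9.34 and 11.9 TPM in PBMC-hCG mice. Control replicate 2 was the lowest of all 20 mice, and without it Tnnt2 fell by 0.50 on the log2 scale between IF and control (limma's adjusted p = 0.0165). Tnnt3, the fast skeletal form, was at 10.6, 7.2, 15.7, 14.7 and 13 TPM in control, 11.4, 7.77, 8.48, 8.75 and 12.7 TPM in IF, 11.7, 11.4, 11.2, 11.5 and 12.5 TPM in PBMC and 8.42, 13.5, 6.87, 7.74 and 11.6 TPM in PBMC-hCG mice. The PBMC mice lay close together, and all groups overlapped.

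The calcium-binding troponin C subunits were each listed at 0 in 1 library and so were outside the test. Tnnc1, the slow skeletal and cardiac form, was at 1.68, 1.87, 2.37, 0 and 3.36 TPM in control, 5.02, 6.85, 2.27, 11.4 and 3.9 TPM in IF, 6.25, 5.62, 4.05, 6.16 and 7.34 TPM in PBMC and 5.23, 4.5, 3.81, 2.5 and 2.58 TPM in PBMC-hCG mice. All 5 PBMC mice lay above all 5 control mice, whereas IF and PBMC-hCG mice overlapped the controls. Of the 18706 tested genes, which do not include Tnnc1, 1618 had all PBMC mice above all control mice. When genes above 0 TPM in at least 5 libraries were tested, 25384 in number, Tnnc1 passed in IF against control (log2 fold change 2.07, standard error 0.68, limma's adjusted p = 0.0458) and in PBMC against control (2.24, standard error 0.68, adjusted p = 0.0342), in comparisons with 16.1% and 14.2% of genes called, but not in PBMC-hCG against control (1.56, adjusted p = 0.11), where 23.2% were called. The 0 of control replicate 4 enters these values as log2(0.1), and they were not tested without that mouse. Tnnc2, the fast skeletal form, was at 1.05, 0.456, 1.52, 1.32 and 1.52 TPM in control, 0.967, 0.59, 0, 0.385 and 0.816 TPM in IF, 0.838, 0.4, 0.749, 1.18 and 1.21 TPM in PBMC and 0.831, 0.154, 0.676, 1.23 and 0.554 TPM in PBMC-hCG mice. It passed in no comparison of that wider test (log2 fold change -1.24 between IF and control, limma's adjusted p = 0.151).

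Of the striated myosin light chains, Myl3 moved the other way from the actins. Myl3, the essential chain of slow and ventricular muscle (chr9:110763678-110769802), was at 1.14, 0.446, 1.72, 1.06 and 0.358 TPM in control, 1.55, 1.11, 0.709, 0.856 and 0.248 TPM in IF, 1.6, 2.42, 0.829, 1.21 and 1.25 TPM in PBMC and 2.07, 1.69, 3.05, 1.47 and 1.72 TPM in PBMC-hCG mice. All groups overlapped, and 4 of the 5 PBMC-hCG mice were above every IF mouse. Myl3 rose in PBMC-hCG against control, by a log2 fold change of 1.15 (standard error 0.41, limma's adjusted p = 0.0369), which was lost without control replicate 2 or 5 or PBMC-hCG replicate 1, 2, 3 or 5 (0.90 to 1.4 over all leave-outs, adjusted p up to 0.111) and when genes above 0 TPM in at least 5 libraries were tested. Against IF its log2 fold change was 1.20 (standard error 0.41, interval 0.36 to 2.05, adjusted p = 0.0529), and it passed without control replicate 2 or 5, IF replicate 1 or PBMC replicate 5 (adjusted p = 0.0396, 0.0438, 0.0376 and 0.0496).

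Myl4, the atrial and embryonic essential chain, was at 1.89, 2.66, 2.63, 3.93 and 2.6 TPM in control, 3.52, 2.68, 2.81, 3.03 and 3.04 TPM in IF, 2.6, 4.04, 3.2, 3.38 and 3.75 TPM in PBMC and 3.54, 2.54, 3.85, 4.2 and 3.06 TPM in PBMC-hCG mice. It overlapped in all groups and passed in no comparison, and Cdc27 overlaps its locus. Myl2, the regulatory chain of slow and ventricular muscle, was listed at 0, 0.452, 0, 0.124 and 1.07 TPM in control, 0.13, 0.146, 0.121, 0.0624 and 0.138 TPM in IF, 0.149, 0.29, 0.643, 1.68 and 0.268 TPM in PBMC and 0.119, 0, 1.21, 0.737 and 0.734 TPM in PBMC-hCG mice. The highest mice were PBMC replicate 4 and PBMC-hCG replicate 3, the groups overlapped, and Myl2 passed in no comparison of the wider test.

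Ckm encodes the muscle creatine kinase, which rebuilds ATP. It was at 5.8, 3.32, 7.09, 8.46 and 7.57 TPM in control, 4.29, 4.04, 3.51, 5.92 and 3.82 TPM in IF, 3.54, 5.67, 3.06, 4.75 and 3.54 TPM in PBMC and 3.22, 3.45, 3.48, 4.63 and 3.92 TPM in PBMC-hCG mice. Control replicate 2 lay among the treated mice, and all other control mice lay above all PBMC-hCG mice. Ckm fell by 0.71 on the log2 scale between PBMC-hCG and control (standard error 0.22, limma's adjusted p = 0.019), a call lost without control replicate 4 or 5 (adjusted p up to 0.0566). In IF against control it was at -0.52 (adjusted p = 0.0975) and without control replicate 2 at -0.74 (adjusted p = 0.00545).

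Without control replicate 2, 7 of the 14 tested striated-muscle genes fell between IF and control (Acta1, Actc1, Tnnt2, Tnni2, Ckm, Casq1 and Casq2), beside 12.4% of all genes. In PBMC against control 6 fell (Acta1, Actc1, Tnnt2, Tnni2, Ckm and Casq2), where 24.7% of all genes were called in either direction. The share that was lower is not given for this comparison. In PBMC-hCG against control 8 fell (the same 7 and Tnnt3), beside 17.1% of all genes. The mouse left out lay below the other control mice in 11 of the 14 genes, these 8 among them. No striated-muscle gene passed in PBMC against IF, PBMC-hCG against IF or PBMC-hCG against PBMC with all mice in limma's test, and the smallest unadjusted p-values there were 0.0063 (Casq1), 0.0079 (Myl3) and 0.115 (Acta1).

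**Figure D4:**
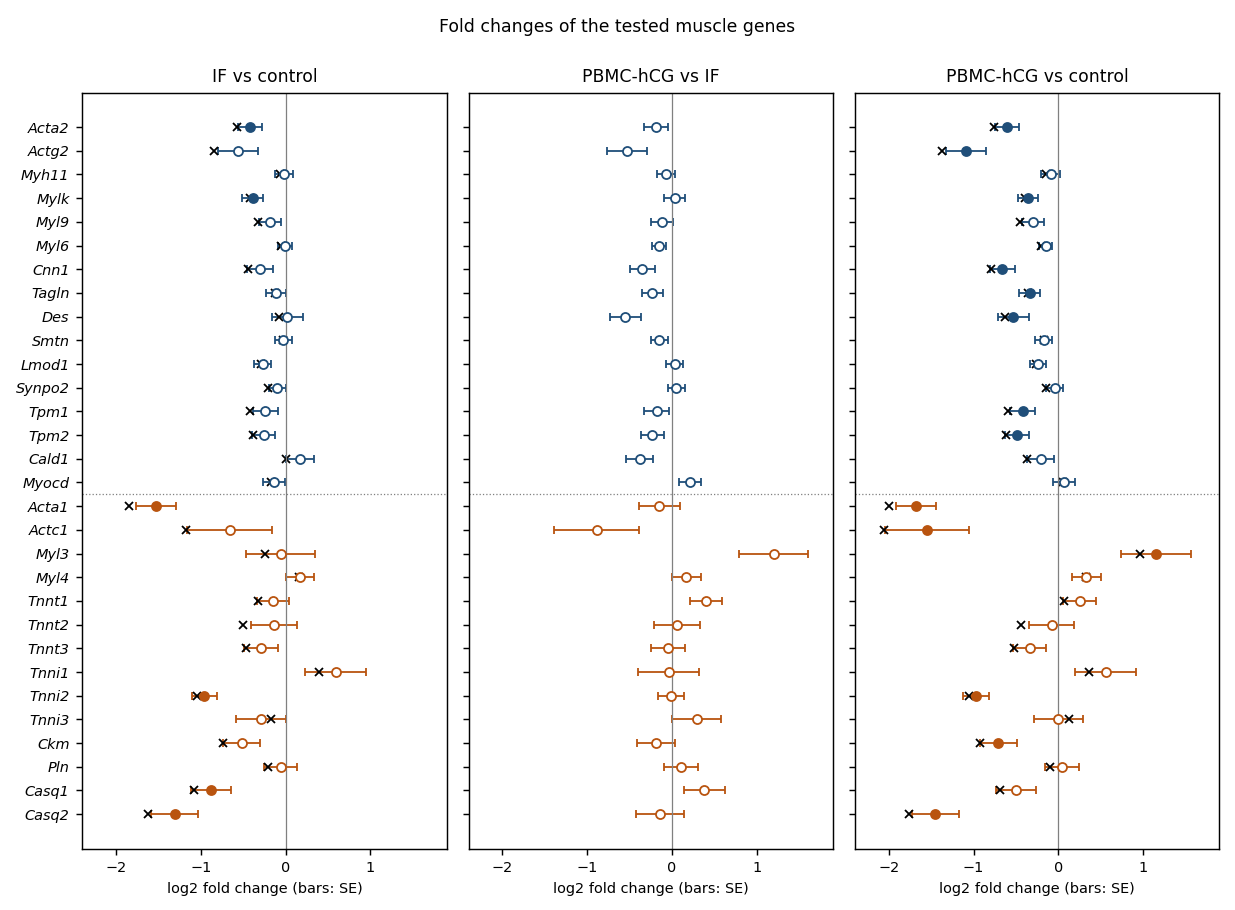
Log2 fold changes on log2(TPM + 0.1) of the 16 smooth-muscle genes (above the dotted line) and the 14 tested striated-muscle genes (under it) in 3 comparisons, with bars of 1 standard error from limma. Filled points passed at an adjusted p under 0.05, open points did not, and crosses give the value without control replicate 2. Acta1, Tnni2 and Casq2 lie left of 0 in both comparisons with control, and no point is filled between PBMC-hCG and IF.

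The promoters of the members were searched because smooth- and striated-muscle genes share a known element, the CArG box, which binds serum response factor, the partner of myocardin. RefSeq promoters of build GRCm38.p6 were available for 12 smooth-muscle genes (14 promoters) and 21 striated-muscle genes (25 promoters), and the 250 bases before each start were read. The pattern searched was CC, then 6 bases that are each A or T, then GG. A CArG box of this form stood in 2 of the smooth-muscle, 4 of the striated-muscle and 1.47% of all 32851 promoters. Boxes that depart from it or lie outside the 250 bases were not looked for, so a gene without a match may still have one. Since the element reads the same on both strands, 1 search covers both. The windows printed here hold the 5 boxes of genes that were above 0 TPM, each 5′ to 3′ on the strand of the gene, with the box in capitals.
Acta1: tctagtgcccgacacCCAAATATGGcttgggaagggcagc
Actc1: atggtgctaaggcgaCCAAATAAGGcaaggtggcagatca
Myl3: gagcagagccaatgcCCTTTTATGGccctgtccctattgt
Myl9: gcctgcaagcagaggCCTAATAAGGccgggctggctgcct
Myl6: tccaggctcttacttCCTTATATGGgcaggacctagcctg
They lie at chr8:123894824-123894863 (minus strand), chr2:114052898-114052937 (minus), chr9:110763578-110763617 (plus), chr2:156775288-156775327 (plus) and chr10:128493035-128493074 (minus), and the boxes begin 73, 47, 85, 161 and 50 bases before the start. Of the striated-muscle genes that fell between IF and control, Acta1 had the box in this window and Casq1 and Casq2 did not, and Tnni2 was not in the promoter table. Myl9 and Myl6, with a box, passed in no comparison with all mice. When control replicate 2 was left out, Myl9 fell in all 3 comparisons with control and Myl6 in PBMC-hCG against control. The hexamer AGAACA, a half-site of progesterone and glucocorticoid receptor elements, was searched on both strands (as AGAACA or TGTTCT) and found in 2 of the 14 smooth-muscle promoters (Mylk and Acta2), 6 of the 25 striated-muscle promoters and 16.1% of all promoters. A match is a description of letters and not a binding site.

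Genes that surround the contractile apparatus were counted for comparison, from lists drawn up with earlier results of these data known. Of 34 regulators and attachment proteins of smooth muscle, 5 rose and 8 fell between IF and control, where 21.9% of all genes were called, at a median log2 fold change of -0.03. The largest were Pdlim3, which encodes an actinin-associated protein, from 339.6 ± 47.8 to 182 ± 16.8 TPM (SD, n = 5 each; log2 fold change -0.90, limma's adjusted p = 6.81e-07), Hspb7, a small heat shock protein of muscle (-0.59, adjusted p = 0.0363), and Jph2, which joins the cell membrane to the reticulum (-0.55, adjusted p = 0.00417). In PBMC-hCG against IF 2 rose and 4 fell, where 13.6% of all genes were called, and in PBMC-hCG against control 5 rose and 10 fell, where 31.8% were.

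Of 13 non-muscle actin and myosin genes and their partners, 4 rose and 1 fell between IF and control, beside 21.9% of all genes called, at a median log2 fold change of 0.23. Their summed level was 5482 TPM in control replicate 2 and 7785 to 8136 TPM in the other control mice. It was 7758 to 10385 TPM in IF mice, and these counts were not repeated without control replicate 2. Myh9, the main non-muscle myosin heavy chain, rose from 179.6 ± 12.4 to 278 ± 19.4 TPM (SD, n = 5 each; log2 fold change 0.63, limma's adjusted p = 3.07e-06). Actg1, cytoplasmic gamma actin, rose by 0.53 (adjusted p = 0.0034), and Cnn3, the acidic calponin, fell by 0.45 on the log2 scale (adjusted p = 0.00711). In PBMC-hCG against IF, 4 of the 13 fell and none rose, beside 13.6% of all genes called, and Myh9 was among the 4 (log2 fold change -0.26, adjusted p = 0.0309). Of the 41 further striated-muscle genes, 17 could be tested, and 3 fell between IF and control, beside 8.53% of all genes. Among these were Pygm, muscle glycogen phosphorylase, from 39.4 ± 6.87 to 25.1 ± 3.59 TPM (SD, n = 5 each; log2 fold change -0.64, limma's adjusted p = 0.00408), and Mybpc2, the fast myosin-binding protein C (-0.77, adjusted p = 0.0291). Of the 17, 2 rose between PBMC-hCG and IF, where 13.6% of all genes were called. They were Pygm, from 25.1 ± 3.59 to 35.4 ± 3.26 TPM (SD, n = 5 each; log2 fold change 0.50, limma's adjusted p = 0.0382), and Actn3, the fast-fiber actinin (0.51, adjusted p = 0.0347). In PBMC-hCG against control 4 of the 17 rose, Actn3 among them (0.68, limma's adjusted p = 0.00173). Mybpc2 was the 1 that fell (-0.85, adjusted p = 0.0124), where 31.8% of all genes were called.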

How the data were processed

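The authors prepared stranded mRNA libraries from the uterus of 20 mice, 5 in each of 4 groups. According to the study's methods and the submitters' processing notes, reads were trimmed with Trimmomatic, mapped to mm10 with HISAT2 and assembled with StringTie, whose versions are not given in the sources used here. The authors deposited 1 TPM value per gene and library, and since TPM sum to a fixed total, depth is unknown. The authors tested counts with edgeR, which TPM cannot supply.

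Genes above 0 TPM in all 20 libraries (18706 of 45777) were tested on log2(TPM + 0.1) by limma's trend method (limma 3.58.1 under R 4.3.3), all groups in 1 fit without a replicate block, and Benjamini-Hochberg adjustment. The method was tested on simulated data. Tables and figures were made with pandas 2.3.3 and matplotlib 3.10.9 in Python 3.11.15. Groups came from the sample titles. Values in every mouse were given for smooth-muscle genes with an adjusted p under 0.05 in IF against control or PBMC-hCG against IF, and for striated-muscle genes reaching 1 TPM in some library. Of each further list, up to 3 called genes with the largest fold changes were named. The members and lists were chosen with earlier results of these data known. No batch is named in the labels. Gene positions are NCBI's for GRCm38.p6. Promoters came from RefSeq and actin transcripts from GENCODE M21, with coding sequence taken as the longest open reading frame.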

Additional observations from a re-analysis of the deposited data

Results flagged for a closer look

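In 6 of the 120 groups of 5 mice examined (30 tested members in 4 groups), the highest or lowest mouse was separated from the next by more than 0.71 of the group's whole range, Dixon's critical value for 5 samples, and chance gives about 1 in 20 such groups, or 6. Acta1 in control replicate 2 was the farthest, at 116 TPM and a gap of 0.86 of the range below the other control mice. Des in IF replicate 5 was high at 1099 TPM (0.828), Actg2 and Synpo2 in PBMC replicate 4 were low at 686 and 116.5 TPM (0.72 and 0.715), and Actc1 in PBMC-hCG replicate 1 and Tnni1 in PBMC-hCG replicate 3 were high at 5.64 and 1.85 TPM (0.721 and 0.715).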

How the results depend on the processing

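With each mouse left out in turn, the number of smooth-muscle genes called was 0 to 8 in IF against control, 0 to 4 in PBMC-hCG against IF, 0 to 6 in PBMC against control and 4 to 11 in PBMC-hCG against control, and that of striated-muscle genes 4 to 7, 0 to 1, 3 to 6 and 3 to 8. The highest counts were those without control replicate 2, shared in 1 case (striated, PBMC-hCG against IF) with control replicate 5, IF replicate 1 and PBMC replicate 5. Without that control mouse, calls over all genes went from 21.9%, 13.6%, 19.5% and 31.8% to 26.8%, 21.8%, 24.7% and 40.2% in these 4 comparisons. For the other leave-outs and settings in this section, the share of all genes was not set beside the counts. The other 2 comparisons gave 0 throughout. Fitting only the 2 groups compared gave 0 smooth-muscle genes in IF against control, 2 in PBMC-hCG against IF and 4 in PBMC-hCG against control. Requiring a fold change of at least 2 with an unadjusted p under 0.05 gave 0 and 1 smooth-muscle genes in IF and PBMC-hCG against control, and 2 and 1 striated-muscle genes in IF against control and PBMC-hCG against IF. In PBMC-hCG against IF, a mean of at least 1 TPM gave 1 gene of each kind, median centring 1 smooth-muscle gene and a pseudocount of 1 gave 1 striated-muscle gene. Median centring gave 1 smooth-muscle gene in PBMC against control. No result changed direction. The causes were not tested.

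Groups share replicate numbers, and deviations from the group means were correlated between mice of different groups. Same-numbered mice had a median correlation of -0.0097 over 30 pairs (range -0.247 to 0.457, 8 over 0.1). Over 120 other pairs it was 0.00883 (range -0.415 to 0.567, 31 over 0.1). No pairing by number was seen in this measure, which cannot exclude one. With a replicate block, 1 smooth-muscle gene was called in IF against control, and 1 smooth- and 1 striated-muscle gene in PBMC-hCG against IF. The block ended the calls of Acta2 in IF against control and of Mylk and Tagln in PBMC-hCG against control, and quantile normalization that of Mylk in the latter. TPM without counts limits what can be said of genes under 1 TPM.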

Other observations

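Within each group the smooth-muscle genes tended to be high or low in the same mice. Control replicate 5 was the highest of its group in 14 of the 16 genes and control replicate 2 the lowest in 11. Among PBMC mice, replicate 1 was the highest in 12 genes and replicate 4 the lowest in 12, and among PBMC-hCG mice replicate 1 was the highest in 13 and replicate 3 the lowest in 10. In IF mice, replicate 4 was the highest in 9 and replicate 3 the lowest in 8. Genes measured in the same library share its scaling and the makeup of the tissue piece, so these counts are not independent. In the 14 tested striated-muscle genes control replicate 2 was the lowest of its group in 11, and no mouse of the other groups was the highest or lowest in more than 7.

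The stroma markers, which were not used above, were lowest in control replicate 2 as well, at a summed 4813 TPM against 8842 to 9551 TPM in the other control mice, and epithelial and leukocyte markers were highest there (951 against 556 to 687 TPM, and 915 against 704 to 749 TPM). Leukocyte markers summed to 683 to 973 TPM in IF, 745 to 874 TPM in PBMC and 794 to 1019.6 TPM in PBMC-hCG mice. Of the 6, 3 were higher in PBMC-hCG than in control mice, where 20.2% of all genes were higher. Of the 7 stroma markers, 2 were higher in IF than in control mice and 1 higher in PBMC-hCG than in IF mice, where 2509 and 1423 of the 18706 tested genes were higher. In PBMC and in PBMC-hCG mice, 2 were higher and 1 lower than in control mice. Over all tested genes, 2400 and 3772 were higher and 1253 and 2169 lower in these 2 comparisons.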
